A study of Mus musculus with 6 samples.

Results

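The genes described here are 10 established transcriptional targets of the tumour suppressor p53: Cdkn1a, Mdm2, Eda2r, Phlda3, Aen, Ccng1, Trp53inp1, Bbc3, Bax and Zmat3. They were taken by name from the authors' deposited gene table, where each of the 10 names matched 1 of 51888 rows, and each passed the filter on low counts. Their messenger RNA was compared in whole hearts of 3 control mice, labelled L/L and Elac2 +/+, and 3 knockout mice, labelled L/L, cre and Elac2 -/-. All mice were on a C57BL/6 background, and the sample labels used here state no age. In the knockout an exon of Elac2, which encodes the tRNA 3'-end nuclease RNase Z, was flanked by loxP sites and removed by cre expressed from the muscle creatine kinase promoter. That promoter is known to be active in striated muscle cells and not in the other cell types of the heart, which would keep Elac2. No library carried cre without loss of Elac2, so the 2 cannot be told apart.

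p53, encoded by Trp53 in the mouse, is a transcription factor held at a low protein level by the ubiquitin ligase Mdm2. When it is stabilised it binds response elements made of a pair of decamer half-sites and raises the transcription of genes for cell cycle arrest, apoptosis and DNA repair, and of Mdm2 itself, which closes a negative feedback loop. In heart muscle, whose adult cells rarely divide, the pathway has been studied mostly for cell death and for control of metabolism.

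RefSeq start-site windows on GRCm38.p6, each running from 250 bases before a transcript start to 50 after, were available for 8 of the 10 genes. Each window was searched for the p53 half-site, a decamer of purines, a C, A or T bases, a G and pyrimidines, which is its own reverse complement and so reads alike on both strands. A pair of half-sites at most 1 base apart, with at most 3 mismatches in all and none in the C and G, was found for 5 of the 8 genes, against 3.27% of the 27025 genes with a window. A single half-site without mismatch was found for 5 of the 8, against 9.55% of genes, and in part these are the same bases. The stretches are shown because they set Ccng1, which did not pass the test below, beside genes that rose. Capitals mark the 2 half-sites, or the single half-site for Mdm2, and each is written 5' to 3' on the strand of its gene.
Cdkn1a: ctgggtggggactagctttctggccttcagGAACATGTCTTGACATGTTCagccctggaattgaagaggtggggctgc
Ccng1: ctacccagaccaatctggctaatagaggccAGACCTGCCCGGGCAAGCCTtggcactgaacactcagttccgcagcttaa
Bax: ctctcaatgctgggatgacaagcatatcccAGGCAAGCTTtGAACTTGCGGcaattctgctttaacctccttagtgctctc
Bbc3: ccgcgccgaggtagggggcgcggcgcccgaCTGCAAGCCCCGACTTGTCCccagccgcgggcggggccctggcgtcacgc
Aen: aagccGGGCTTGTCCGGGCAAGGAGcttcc
Mdm2: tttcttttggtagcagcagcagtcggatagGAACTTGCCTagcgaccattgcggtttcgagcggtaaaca

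The Cdkn1a stretch (chr17:29090898-29090975, plus strand) holds a pair with 1 mismatch that begins 51 bases before the start at 29090979, and a further half-site without mismatch lies 73 to 64 bases before that start, in lower case. The Ccng1 stretch (chr11:40755432-40755511, minus strand) also holds a pair with 1 mismatch, beginning 195 bases before its start. The Bax pair (chr7:45467049-45467129, minus strand) has 2 mismatches and a 1-base gap. The Bbc3 pair (chr7:16309456-16309535, plus strand) and the Aen pair (chr7:78895932-78895961, plus strand) have 3 mismatches each, and that of Aen lies in an annotated exon. Mdm2 (chr10:117710905-117710974, minus strand) had a single half-site and no pair in the window. Phlda3 and Eda2r had neither in theirs. These matches describe the letters of a 300-base window and are not measurements of binding. Bases outside the windows, such as those further upstream or deeper in introns, were not searched. A gene without a pair here may therefore have one elsewhere.

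Of the 10 genes, 9 rose in the knockout hearts and 0 fell, where 18.7% of 14302 tested genes were called higher and 17.8% lower. Their median log2 fold change was 1.62, against -0.01 over all tested genes. Levels below are CPM, a gene's counts brought to one common library size after TMM scaling. A gene counts as higher or lower where edgeR's quasi-likelihood test over all genes gave it an adjusted p (Benjamini-Hochberg) below 0.05. Each of the 9 had its 3 knockout libraries above its 3 control libraries, a separation upwards that 26.2% of tested genes showed. None fell at an unadjusted p under 0.05 either. DESeq2 gave 9 higher and 0 lower, where it called 14.5% of genes higher and 13.1% lower, and limma-voom gave 9 and 0, where it called 18.2% and 18% of genes. The list was assembled with earlier results of these hearts known, so its direction is not independent evidence.

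**Figure D1:**
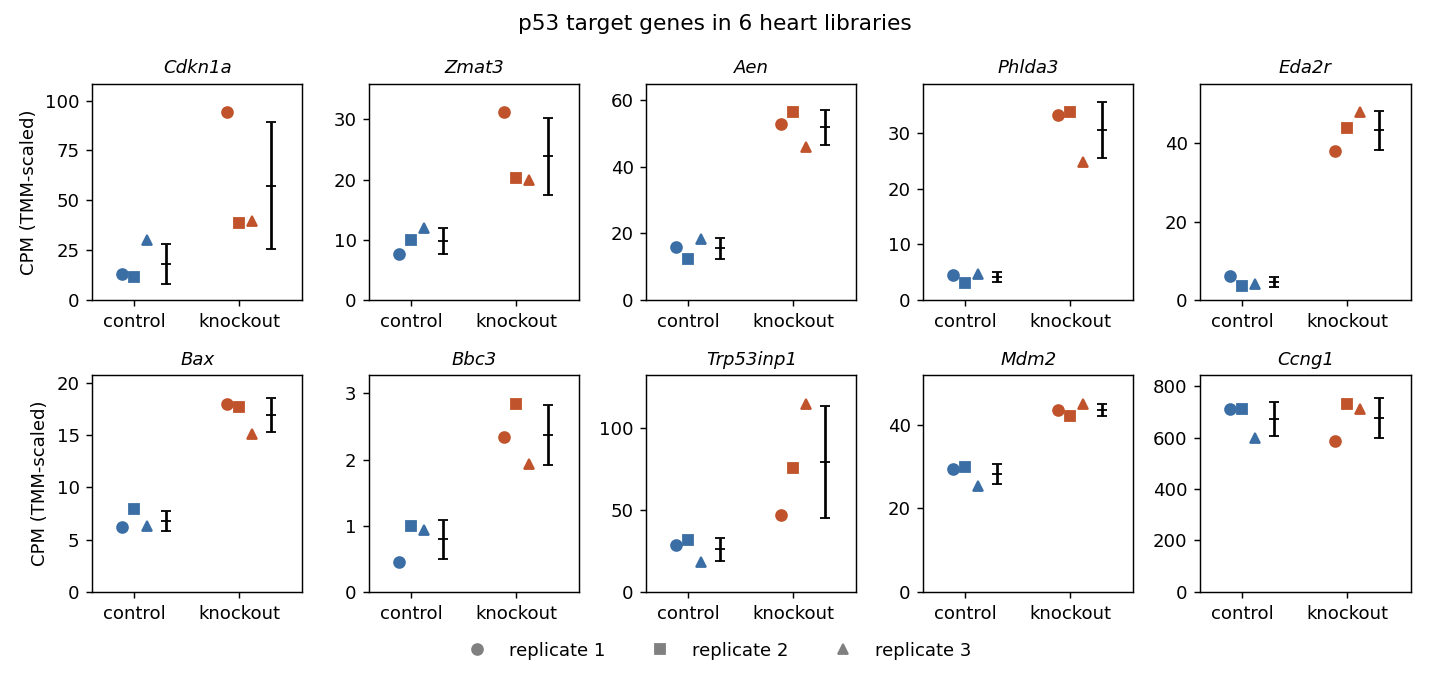
Level of each p53 target gene in each library, in CPM on a linear axis from 0, with blue symbols for controls, red for knockouts, symbol shape for the replicate number and a black bar for mean ± SD (n = 3). Knockout libraries lie above all control libraries for each gene except Ccng1, and relative to the mean Cdkn1a and Trp53inp1 spread most within the knockouts.

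Cdkn1a encodes p21, the inhibitor of cyclin-dependent kinases through which p53 stops the cell cycle (ENSMUSG00000023067.13, chromosome 17, 29090976 to 29100727 in mm10). It measured 12.9, 11.7 and 29.9 CPM in control replicates 1, 2 and 3 and 94.4, 38.4 and 39.5 CPM in knockout replicates 1, 2 and 3. Control 3 and knockout 1 stood high within their groups, and the gap between the groups was narrow, the lowest knockout being at 1.29 times the highest control. The log2 fold change was 1.68 (SE 0.42, adjusted p = 0.0111), about 3.21-fold. The log2 fold change was 1.13 without knockout 1 and 2.24 without control 3, both called, and the call was lost without control 1 (adjusted p = 0.0617) and without control 2 (adjusted p = 0.053). An opposite-strand transcript, AC167363.2, covers 7.68% of the exon bases of Cdkn1a, and the sources used here do not give whether strand entered the counting.

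Mdm2, the ubiquitin ligase that p53 induces against itself (ENSMUSG00000020184.15, chromosome 10, 117688875 to 117710758), measured 29.3, 30 and 25.4 CPM in controls and 43.6, 42.1 and 45.1 CPM in knockouts. Libraries of a group differed little, by at most 1.18 times in controls and 1.07 times in knockouts, and the groups did not overlap. The rise of Mdm2 was 1.54-fold, a log2 fold change of 0.62 with an SE of 0.11 (adjusted p = 2.05e-03).

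Ccng1, cyclin G1, recruits a phosphatase to Mdm2 and is one of the p53 targets described earliest (ENSMUSG00000020326.7, chromosome 11, 40748552 to 40755311). It measured 713, 712 and 597 CPM in controls and 589, 732 and 714 CPM in knockouts. The groups overlapped throughout, with the lowest library among the knockouts. Its log2 fold change was 0.009 (SE 0.15, adjusted p = 0.971), with a 95% interval from -0.33 to 0.35. That interval lies below the log2 fold change of each of the other 9 genes, and 48.5% of all tested genes had a higher log2 fold change than Ccng1. With library size alone as the scaling, which moved the median of all genes to 0.68 and called 56.6% of them higher, Ccng1 was called higher at 0.70 (adjusted p = 0.0149).

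Eda2r, a receptor of the tumour necrosis factor receptor family, rose most (ENSMUSG00000034457.10, chromosome X, 97333840 to 97377216). It measured 6.02, 3.67 and 4.18 CPM in controls and 38.1, 43.9 and 48.0 CPM in knockouts. Even the lowest knockout library was at 6.33 times the highest control. The log2 fold change was 3.20 (SE 0.19, adjusted p = 5.56e-06), or 9.16-fold, and 0.545% of tested genes had a larger one. Its ligand gene Eda, at a log2 fold change of -0.57 with an SE of 0.27, did not pass the test (adjusted p = 0.12), and the related receptor gene Edar, with 8 counts in the control group and 22 in the knockout group, lay below the filter.

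Phlda3, a pleckstrin homology domain protein that restrains Akt kinase signalling, rose nearly as much (ENSMUSG00000041801.5, chromosome 1, 135766119 to 135769136). It measured 4.59, 3.11 and 4.65 CPM in controls and 33.3, 33.9 and 24.8 CPM in knockouts. The lowest knockout library was at 5.34 times the highest control. The log2 fold change was 2.89 (SE 0.20, adjusted p = 1.13e-05), or 7.40-fold. Its paralog Phlda1 stood at -0.33 on the log2 scale (SE 0.25) and did not pass the test (adjusted p = 0.325), and Phlda2 had 0 counts in all 6 libraries.

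Bbc3, which encodes the BH3-only protein Puma, was the scarcest of the genes (ENSMUSG00000002083.13, chromosome 7, 16308393 to 16318205), with 6, 9 and 8 counts in the control hearts and 44, 49 and 24 counts in the knockout hearts. In CPM these were 0.451, 1.0 and 0.929 against 2.34, 2.85 and 1.93, without overlap. Its log2 fold change was 1.64 (SE 0.35, adjusted p = 5.24e-03), and the few control reads limit its precision. Under the stricter filter, of 50 counts in 3 libraries, Bbc3 was not tested.

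Bax encodes the pore-forming protein of the outer mitochondrial membrane on which Puma acts (ENSMUSG00000003873.11, chromosome 7, 45461697 to 45466898). It measured 6.17, 7.89 and 6.27 CPM in controls and 18.0, 17.7 and 15.1 CPM in knockouts. The knockout libraries were close together, and the lowest was at 1.91 times the highest control. The log2 fold change of Bax was 1.33, or 2.51-fold, with an SE of 0.16 (adjusted p = 2.24e-04). A same-strand gene, Gm45808, covers 12.2% of its exon bases and was not itself among the tested genes.

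Aen encodes an apoptosis-enhancing nuclease (ENSMUSG00000030609.18, chromosome 7, 78895854 to 78911209). It measured 15.9, 12.2 and 18.4 CPM in controls and 53, 56.5 and 46 CPM in knockouts. The groups did not overlap, with the lowest knockout at 2.51 times the highest control. Aen rose by 1.74 (SE 0.16, adjusted p = 4.73e-05), or 3.34-fold, while its relatives Isg20 and Isg20l2 had log2 fold changes of 0.20 and 0.38 and did not pass the test (adjusted p = 0.635 and 0.0702).

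Trp53inp1 encodes a nuclear stress protein that also takes part in autophagy (ENSMUSG00000028211.11, chromosome 4, 11156431 to 11174379). It measured 28.4, 31.7 and 18.2 CPM in controls and 46.6, 75.5 and 115 CPM in knockouts. The knockout libraries differed among themselves by 2.46 times, and the lowest was knockout 1, the library in which Cdkn1a was highest. Its log2 fold change was 1.59 (SE 0.30, adjusted p = 3.04e-03), and 1.23 without knockout 3. The paralog Trp53inp2, an autophagy factor abundant in muscle, fell by 0.81 (SE 0.13, adjusted p = 9.94e-04), at 335, 407 and 383 CPM in controls and 215, 208 and 216.3 CPM in knockouts, a call lost with library size alone (log2 fold change -0.10, adjusted p = 0.68).

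Zmat3, also called Wig1, encodes a zinc finger protein that binds RNA (ENSMUSG00000027663.12, chromosome 3, 32334792 to 32366014). It measured 7.67, 9.89 and 11.96 CPM in controls and 31.3, 20.3 and 19.97 CPM in knockouts. As for Cdkn1a, knockout 1 was the highest library, and the groups did not overlap. The rise of Zmat3 was 2.45-fold, a log2 fold change of 1.29 with an SE of 0.22 (adjusted p = 1.63e-03).

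**Figure D2:**
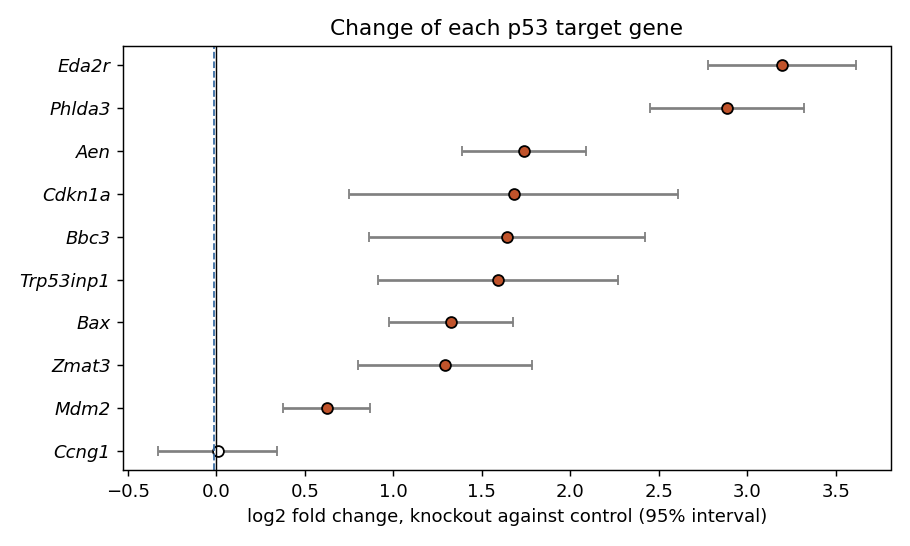
Log2 fold change of each p53 target gene, knockout against control, with its 95% interval from the quasi-likelihood fit (n = 3 libraries a group). Filled points passed the adjusted p threshold and the dashed line is the median of all tested genes at -0.01. Eda2r and Phlda3 lie furthest right, at 3.20 and 2.89, and the interval of Ccng1 spans 0.

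Different knockout hearts were highest for different genes. Knockout 1 was the highest knockout library for 3 genes, knockout 2 for 4 (among them Ccng1, which did not rise) and knockout 3 for 3. Some of these ranks rest on small differences, as for Mdm2 at 43.6, 42.1 and 45.1 CPM in knockout replicates 1, 2 and 3. The median log2 difference of the 10 genes from their control means was 1.56, 1.47 and 1.22 in knockout replicates 1, 2 and 3. In the controls it was 0.06, 0.06 and 0.05, small by construction because each gene's control mean was subtracted. On the same scale Cdkn1a stood at 2.51, 1.21 and 1.25 and Trp53inp1 at 0.87, 1.57 and 2.17, so different libraries were highest for these genes. In the authors' deposited table, where 14.5% of genes were called higher, so were these 9 genes, with log2 fold changes from 0.65 for Mdm2 to 3.23 for Eda2r, and Ccng1 stood at 0.04 (adjusted p = 0.889).

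Levels of different genes were compared per kilobase of annotated exon. On that scale Ccng1 was far above the rest, at 192 ± 19.0 CPM per kb in controls against 193 ± 22.2 in knockouts (both SD, n = 3). The next in controls was Mdm2 at 5.56 ± 0.485 CPM per kb, followed by Cdkn1a, Bax and Trp53inp1 at 5.10 ± 2.86, 4.30 ± 0.612 and 4.03 ± 1.08. Each of these 4 lies within the spread of its neighbour in that order. Aen and Phlda3 came next at 2.67 ± 0.532 and 2.64 ± 0.558, which do not differ beyond their spread, then Zmat3 and Eda2r at 0.861 ± 0.188 and 0.785 ± 0.21, also indistinguishable. Bbc3 was lowest at 0.374 ± 0.141. In knockouts the order below Ccng1 changed, with Phlda3 at 19.7 ± 3.25 and Cdkn1a at 16.2 ± 9.01 CPM per kb next. Trp53inp1, Bax and Aen followed at 12.2 ± 5.28, 10.7 ± 1.03 and 8.93 ± 0.923, then Mdm2 at 8.58 ± 0.294. The spreads of Cdkn1a, Trp53inp1 and Aen reached the Mdm2 mean.

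**Figure D3:**
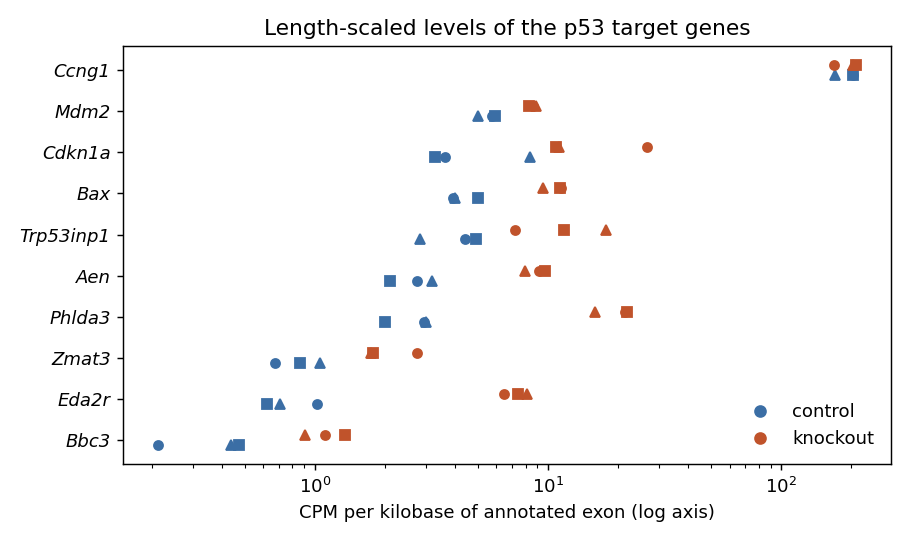
Level of each p53 target gene in CPM per kilobase of annotated exon on a log axis, ordered by the control mean, with blue for controls, red for knockouts and circles, squares and triangles for replicates 1, 2 and 3. Ccng1 lies near 192 CPM per kb in both groups, and in controls the other genes lie between 0.213 and 8.40.

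The p53 gene itself did not pass the test. Trp53 measured 7.67, 9.89 and 11.3 CPM in controls and 10.9, 10.97 and 10.4 CPM in knockouts, which overlap. Its log2 fold change was 0.17 (SE 0.17, adjusted p = 0.438, 95% interval -0.19 to 0.54), and with library size alone it was called higher at 0.89 (adjusted p = 9.45e-04). These are messenger RNA levels, and the amount of p53 protein was not measured here. Mdm4, the partner of Mdm2, and Ppm1d, a phosphatase of the feedback loop and a known p53 target, had log2 fold changes of -0.25 and 0.20 (adjusted p = 0.098 and 0.401), and Mdm4 turned to 0.45 with library size alone. Among 11 tested genes, p53 and its regulators, 1 was higher and 1 was lower, with a median of 0.17. Over all tested genes 18.7% were called higher and 17.8% lower. Those called on this list were the acetyltransferase genes Kat5 at 0.49 (adjusted p = 0.0283) and Ep300 at -0.47 (adjusted p = 0.0265). With library size alone Ep300 turned to 0.25. Leaving out control 2, knockout 2 or knockout 3 ended the Kat5 call, as did DESeq2 and the replicate block. Leaving out control 2, control 3 or knockout 2 ended that of Ep300, as did the replicate block. Without knockout 1 the list had 3 higher and 3 lower, where 20% of all genes were called higher and 20.2% lower.

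Kinases and mediators of the DNA damage response, which signal to p53, gave 2 higher and 0 lower of 11 tested, with a median log2 fold change of 0.17, a share higher close to the 18.7% of all tested genes. Prkdc and Atr, at 0.43 and 0.41 (adjusted p = 0.0257 and 0.0354), were those called. Leaving out any of control 2, control 3, knockout 2 and knockout 3 ended both calls, as did the replicate block. At an unadjusted p under 0.05 the list had 3 higher and 1 lower, and DESeq2 called 0 lower and limma-voom 1. Proteins of the ribosome and nucleolus that are known to bind Mdm2 gave 9 higher and 0 lower of 10, with a median of 1.01, and 0 lower at an unadjusted p under 0.05, with DESeq2 and with limma-voom. Genes of the nucleolar proteins Gnl3 and Npm1 rose by 1.56 and 1.19 (adjusted p = 4.56e-05 and 6.68e-05). Those of the ribosomal proteins Rpl26, Rps14 and Rpl23 rose by 1.10, 1.05 and 0.95 (adjusted p = 2.71e-04, 3.22e-04 and 4.35e-04). Rpl5 and Rpl11, which hold Mdm2 in a complex with the small ribosomal RNA 5S and were picked after their values were seen, rose by 0.93 and 0.68 (adjusted p = 1.24e-03 and 1.79e-03).

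A wider list of 36 other known p53 targets held genes called in both directions. Of 34 tested, 16 were higher and 5 lower, with a median log2 fold change of 0.52. Among all tested genes 18.7% were called higher and 17.8% lower, the latter above the share lower on this list. Sesn2, a sestrin that restrains the growth kinase mTORC1, measured 2.03, 1.67 and 2.21 CPM in controls and 20.5, 20.03 and 16.7 CPM in knockouts and rose by 3.27 (SE 0.18, adjusted p = 3.78e-06). Plk2, a stress-induced kinase, rose by 1.93 (SE 0.13, adjusted p = 1.02e-05). Rps27l, a ribosomal protein paralog, rose by 1.47 and the death receptor gene Tnfrsf10b by 1.82 (adjusted p = 3.66e-05 and 1.69e-04). The secreted factor Gdf15 was nearly absent from controls, with 2, 2 and 0 counts, against 2356, 2152 and 1183 in knockout replicates 1, 2 and 3. Gdf15, Sesn2 and Tnfrsf10b are also known targets of the integrated stress response.

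The members of the wider list that fell, named after their values were seen, were Ptp4a3 at -1.17, Fbxw7 at -0.61, Sesn1 at -0.55, Kitl at -0.49 and Susd6 at -0.36 (adjusted p = 2.01e-03, 2.77e-03, 0.0446, 0.0128 and 0.0271), and with library size alone Ptp4a3 alone of these stayed below 0 and none was called lower. The number lower was 3 without control 1, 2 without control 2, 3 without knockout 2 and 3 with the replicate block. In these settings 14.1%, 12.2%, 12.3% and 14.8% of all genes were called lower, and 3.86% with library size alone. The call of Sesn1 was lost without control 1, control 2 or knockout 2, that of Kitl without control 2, and that of Susd6 without control 1, control 2, control 3 or knockout 2. Other well-known targets, also picked after their values were seen, did not pass the test. These were Btg2 at 0.67 (adjusted p = 0.0765), Fas at -0.14 (adjusted p = 0.649) and Rrm2b at -0.20 (adjusted p = 0.419). Start-site windows were available for 29 of the 36. Of these, 4 held a pair of half-sites, against 3.27% of the 27025 genes with a window. A single half-site without mismatch was found for 6, against 9.55% of genes.

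**Figure D4:**
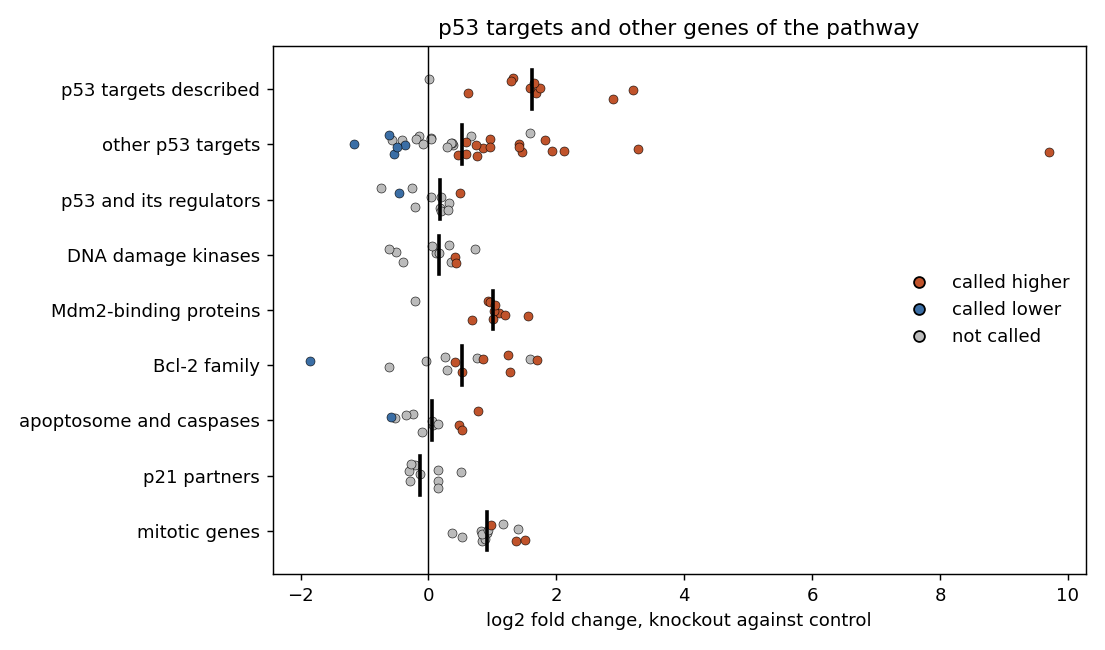
Log2 fold change, knockout against control, of each tested gene of 9 lists, with red points called higher, blue points called lower, grey points not called and a black line for the list median. Vertical scatter within a row is arbitrary, and the point near 9.70 is Gdf15.

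The Bcl-2 family, which decides whether Bax opens the mitochondrial membrane, gave 6 higher and 1 lower of 13 tested outside the 10 genes. Its median log2 fold change was 0.53, and 18.7% of all tested genes were called higher and 17.8% lower. Both killers and protectors rose. The effectors Bok and Bak1 rose by 1.70 and 0.85 (adjusted p = 1.24e-03 and 2.12e-03) and the protective Bcl2 and Bcl2l1 by 1.24 and 0.53 (adjusted p = 2.89e-04 and 6.34e-03). The BH3-only gene Bcl2l11, which encodes Bim, fell by 1.86 (SE 0.18, adjusted p = 6.61e-05), from 15.3 ± 1.47 to 4.27 ± 0.855 CPM (both SD, n = 3). Apoptosome and caspase genes gave 3 higher and 1 lower of 11, against 18.7% and 17.8% of all tested genes, with a median of 0.05. The apoptosome scaffold gene Apaf1 was higher by 0.47 (adjusted p = 0.0127) and the inhibitor of caspases Xiap lower by 0.58 on the log2 scale (log2 fold change -0.58, adjusted p = 6.67e-03, but 0.13 with library size alone). Htra2, a mitochondrial protease, stood at 0.53 (adjusted p = 0.0324). The call of Apaf1 was lost without control 2, and that of Htra2 without every library in turn other than knockout 3. The number higher was 1 without any one of the controls, where 13% to 15% of all genes were called higher.

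Cyclins, kinases and other partners of p21 gave 0 higher and 0 lower of 9 tested with edgeR, with a median log2 fold change of -0.13. At an unadjusted p under 0.05 the list had 0 higher and 1 lower, and DESeq2 and limma-voom called 0 in either direction. There was 1 lower without control 1 and 1 lower without knockout 1, where 14.1% and 20.2% of all genes were called lower. Rb1, the retinoblastoma gene, had the smallest p, with a log2 fold change of -0.27 (adjusted p = 0.106), or 0.43 with library size alone. Of the other kinase inhibitor genes of the p21 family, Cdkn1b was at 0.08 (adjusted p = 0.643) and Cdkn1c at -0.61 (adjusted p = 0.0368), the latter call being lost with DESeq2, with the replicate block and without each library other than knockout 3. Mitotic genes that p53 is known to repress through p21 and the DREAM complex gave 3 higher and 0 lower of 13 tested. Over all tested genes 18.7% were called higher and 17.8% lower. The median of the mitotic genes was 0.92, and 0 were lower at an unadjusted p under 0.05, with DESeq2 and with limma-voom. With limma-voom 1 was higher and with DESeq2 4, where they called 18.2% and 14.5% of all genes higher. Those called, Aurka, Top2a and Ccna2, were at 1.5, 0.98 and 1.37 (adjusted p = 0.0159, 0.0409 and 0.0423). At an unadjusted p under 0.05, 7 were higher. The number called was 9 with no filter, 12 with library size alone and 0 with at least 50 counts in 3 libraries. In these settings 11.8%, 56.6% and 21.5% of all genes were called higher. The number of mitotic genes called was 0 without control 1, 1 without control 3 or knockout 1 and 2 without control 2 or knockout 2. It was 10 without knockout 3 and 5 with the replicate block. With 1 library left out 13% to 20% of all genes were called higher (16.4% without knockout 3), and with the replicate block 15.2%. The 17 mitotic genes summed to between 26.7 and 43.8 CPM in controls and between 36.15 and 101 CPM in knockouts, which overlap.

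Library totals ran from 12057962 to 14276410 counts in controls and from 9850100 to 14461110 in knockouts. Mitochondrial-encoded RNA took 49.3% to 61.1% of counts in controls and 33.3% to 36.7% in knockouts. Library size alone called 8093 genes higher and 552 lower, against 2671 and 2544 with TMM, and called all 10 p53 targets higher. Elac2, the targeted gene, measured 15.0, 14.0 and 13.0 CPM in controls and 5.36, 5.63 and 6.52 CPM in knockouts, in the direction of the labels.

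These are whole hearts, so more cells of a type and more RNA per cell cannot be told apart. For the counts of markers below, 18.7% of all tested genes were called higher and 17.8% lower. With 1 library left out these shares were 13% to 20% and 12.2% to 20.2%. Cardiomyocyte markers, whose abundant sarcomere genes fit the labelled tissue, summed to between 96049 and 97800 CPM in controls and between 66050 and 67825 CPM in knockouts, with 4 of 10 lower and 0 higher. Endothelial markers summed to 741 to 818 CPM and 553 to 676 CPM, with 4 of 11 lower, or 1 without control 2 or knockout 2, 2 without control 1 or knockout 3, and 7 without knockout 1. Fibroblast markers summed to 1702 to 2525 CPM and 2374 to 3408 CPM, with 1 of 10 higher, or 3 without knockout 1 or knockout 3. Macrophage and leukocyte markers summed to 201 to 222 CPM and 216.02 to 259 CPM, with 1 of 11 higher. Smooth muscle and pericyte markers summed to 1179 to 1452 CPM and 751 to 811 CPM, with 2 of 10 higher and 3 lower. Leaving out control 1, control 2, control 3 or knockout 2 left 1 higher there, and leaving out control 1, control 2, knockout 2 or knockout 3 left 2 lower. Erythroid markers summed to 522 to 1795 CPM and 1440 to 2942 CPM, with 1 of 7 higher, or 0 without control 1, control 2, knockout 2 or knockout 3 and 2 without control 3. No marker of these lists was at 0 in all libraries. The part of these shifts in the rise of the p53 targets was not tested.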

How the data were processed

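Total RNA of 6 hearts, 3 a group, was sequenced in paired-end TruSeq libraries. The submitters' processing notes name HISAT2 2.0.5, SAMtools 1.5, featureCounts 1.5.1, DESeq2 1.16.1 and mm10, with no role for each. The authors deposited whole-number counts per gene, normalised values, a signal equal to the counts divided by 1 size factor per library, and a table with a log2 fold change and its standard error, a test statistic without fixed range (a score), and p-values, raw and adjusted. Technical replicates named in the series design appear as 1 column per mouse.

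Counts were tested with edgeR 4.0.16 in R 4.3.3 (quasi-likelihood test, TMM, filterByExpr with a minimum count of 10, Benjamini-Hochberg over 14302 genes). The SE is the log2 fold change divided by the root of F. Coordinates and exon lengths are from GENCODE M21, sequences from RefSeq on GRCm38.p6. No other gene shared 200 bases at 95% identity (blastn 2.17.0) with a transcript of the 10 genes, other than AC167363.2 with Cdkn1a. Libraries of a group differed by a chi-square of at least 8.93 per degree of freedom, so each counted as 1 replicate. Whether they come from separate litters is not given, so p-values measure the spread between these mice.

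All 10 genes were named, and of other lists up to 5 called genes with the smallest adjusted p, or 1 where none was called. Trp53, Mdm4, Ppm1d and Elac2 were always named, and any further gene was picked with its values in view. One gene that this rule would name is not reported here. The members and lists were chosen with earlier results of these data known. Alternatives were library size alone, RLE scaling, at least 50 counts in 3 libraries, no filter, TMM leaving out mitochondrial-encoded genes, DESeq2 1.42.0, limma-voom (limma 3.58.1), an adjusted p under 0.01, the authors' deposited table, each library left out, and the replicate number as a block. Of the listed names, Trp53rk was not matched, and Cop1 is listed as Rfwd2.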

Additional observations from a re-analysis of the deposited data

How the results depend on the processing

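The number of the 10 genes called higher was 8 to 10 under every alternative listed, and 0 were called lower in each, while the share of all genes called higher ran from 11.1% to 56.6%. It was 8 with an adjusted p under 0.01 (Cdkn1a lost) and with at least 50 counts in 3 libraries (Bbc3 not tested), and 8 to 9 with 1 library left out. Their median log2 fold change was 2.305 with library size alone and 1.40 to 1.63 with 1 library left out (1.395 without control 1). For the other p53 targets, library size alone gave 0 lower and a median of 1.21, an adjusted p under 0.01 gave 2 lower, and the replicate block 3. In these settings 3.86%, 9.89% and 14.8% of all genes were called lower. The median of the other targets was 0.63 with no filter and 0.62 with both DESeq2 and the authors' deposited table. Leaving out 1 library gave 2 to 5 of them lower, 12 to 16 higher and a median of 0.46 to 0.62. In those fits 12.2% to 20.2% of all genes were called lower and 13% to 20% higher.

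Ccng1 turned to -0.021 with at least 50 counts in 3 libraries and ranged from -0.069 to 0.10 with 1 library left out, being -0.069, -0.048 and -0.026 without control 3, knockout 2 and knockout 3 (adjusted p of at least 0.583 in every alternative other than library size alone). With library size alone, values that had been below 0 turned to 0.45 for Mdm4, 0.073 for Fbxw7, 0.22 for Kitl, 0.33 for Susd6, 0.14 for Sesn1, 0.25 for Ep300, 0.0895 for Cdkn1c, 0.13 for Xiap, 0.43 for Rb1, 0.0067 for Actc1, 0.26 for Tek, 0.39 for Tie1, 0.19 for Cdh5 and 0.26 for Rgs5. The same scaling turned the medians of the p21 partners, cardiomyocyte, endothelial and smooth muscle markers to 0.55, 0.30, 0.39 and 0.28, all below the 0.68 of all genes. Medians near 0 turned with 1 library left out: those of the paralogs (-0.15 to 0.16) to -0.070, -0.083 and -0.15 without control 1, control 3 and knockout 3, of the caspases (-0.10 to 0.055) to -0.015, -0.019 and -0.10 without control 1, control 3 and knockout 2, of the p21 partners (-0.11 to 0.028) to 0.028 without control 1, and of the macrophage markers to -0.089 without knockout 1. The cause of these shifts was not tested.

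The replicate block called 4293 genes, 2178 higher and 2115 lower, against 5215, and left 9 of the 10 genes called. Same-numbered libraries deviated from their group means with correlations of -0.198, 0.0851 and -0.0871, so the numbers were not taken to pair the mice. Bbc3, with 6 to 9 counts in controls, is limited by depth.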

Other observations

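Genes of the integrated stress response were all called higher, 8 of 8, against 18.7% of all tested genes. Their median log2 fold change was 2.60. They are of interest here because several p53 targets, Bbc3 and Tnfrsf10b among them, are also known targets of its factors Atf4 and Ddit3. Atf4 rose from 34.6 ± 3.17 to 251 ± 29.1 CPM and Ddit3, which encodes Chop, from 6.48 ± 0.305 to 42.4 ± 16.4 CPM (SD, n = 3 each), with log2 fold changes of 2.85 and 2.71 (edgeR adjusted p = 1.77e-06 and 1.31e-04). Trib3, Asns and Atf5 rose by 6.08, 5.49 and 2.25 (edgeR adjusted p = 1.24e-06, 4.01e-07 and 9.28e-06). Which factor acted on a shared target was not tested.

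Some genes of the pathway lay below the filter on low counts. Trp63, a relative of p53, had 3, 5 and 4 counts in control replicates 1, 2 and 3, against 6, 31 and 27 in knockouts, so knockout 1 was close to the controls. Psrc1 summed to 5 counts in the control group and 31 in the knockout group, and Spata18 to 7 and 24. The cyclin gene Ccnb1 had 5, 6 and 2 counts in the control hearts, against 47, 26 and 6 in the knockout hearts. Trp73 had 0 counts in all 6 libraries, and Cdkn2a had 1 in each knockout library and none elsewhere.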
